A study of Arabidopsis thaliana with 19 samples.

Results

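The genes described here encode the nuclear subunits of the photosynthetic light reactions in Arabidopsis thaliana: the antenna proteins of both photosystems, subunits of photosystem II and photosystem I, plastocyanin, the Rieske protein, ferredoxin-NADP reductase and the ATP synthase. They were chosen as a list of 39 loci by their function. Of these, 36 had a probe set among the 21021 loci of the authors' averaged table, and LHCA2 (AT3G61470), AT1G29930 and AT2G05070 were not analysed here. All 36 passed the filter on low signals, 33 of them through all 7 reporters, PETE1 through 5, ATPD through 4 and PSBO2 through 3.

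In the light reactions, antenna proteins pass absorbed light energy to the photosystems. Photosystem II takes electrons from water, the cytochrome b6f complex and plastocyanin carry them to photosystem I, and ferredoxin-NADP reductase hands them to NADP, while the ATP synthase uses the proton gradient built on the way. The core subunits are encoded in the plastid and most antenna and peripheral subunits in the nucleus, and leaf cells express the nuclear genes together as chloroplasts mature.

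RNA came from protoplasts of shoot apices of ap1-1;cal1-1 plants, which carry mutations in APETALA1 and CAULIFLOWER and make meristems where wild-type plants make flowers. All plants were 28 days old, and every group shared this genotype, the protoplasting and 2 rounds of RNA amplification. Cells were sorted by a fluorescent reporter driven by 1 promoter per population: AtML1 (2 arrays) and HMG (3), both labelled epidermal, LAS (2), labelled adaxial, KAN1 (3), labelled organ circumference, HDG4 (3), labelled subepidermal, AtHB8 (3), labelled xylem with the word stem, and S17 (3), labelled phloem. There was no unsorted or wild-type group. A reporter shows where its promoter is active, which need not match 1 cell type, and separate plants for the replicates are not stated in the labels, so the p-values cover the spread of these 19 arrays alone, which may be technical.

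The labels were checked against marker genes. The 4 epidermal markers (ATML1, FDH, LTP1, PDF1) summed to signals of 49773.7 to 65965.5 on the AtML1 and HMG arrays and of 44218 to 49700.4 on KAN1 arrays, against 2672 to 3539 on HDG4 arrays and 663 to 1728 on AtHB8 and S17 arrays. On LAS arrays the epidermal markers summed to 22317 to 26640, and all 4 were called higher than in HDG4. The 4 boundary markers (LAS, CUC1, CUC2, CUC3) summed to 7169 to 7937 in LAS and up to 1852 on other arrays. Of these, 1 was called higher in LAS than in HDG4, and 2 of the 4 differences were negative. The 4 abaxial markers (KAN1, KAN2, FIL, YAB3) summed to 939 to 1098 in KAN1 and 957 to 1576 in HDG4. They summed to 1382 to 1648 in AtML1. Of the 3 tested, none was called between KAN1 and HDG4, with a median difference of -0.39. The xylem marker ATHB8 was brightest in AtHB8. The 4 xylem markers (ATHB8, IRX3, VND7, XCP1) summed to 9340 to 11375 in AtHB8. In S17 they summed to 1740 to 2287, and 2 of the 4 were called present on all arrays. The 4 phloem markers summed to 11689 to 13813 in S17. They also summed to 1558 to 3076 in HDG4, where 3 of the 4 were called present on all arrays, to 580.0 to 1167 in KAN1 and to 4138 to 6048 in AtHB8, labelled xylem, where 2 of the 4 were called present on all arrays and the other 2 absent. The 4 meristem markers (STM, KNAT1, CLV3, WUS) summed to 2519.9 to 2624 in KAN1, 6125 to 6850.3 in HDG4 and 5983 to 7900.5 in S17. In S17, 2 of the 4 were called present on all arrays and the other 2 absent. In HDG4, 3 were called present on all arrays and none absent on all. This sum joins markers that moved in opposite directions: in S17 minus HDG4, 1 difference was positive and 3 were negative, from -3.97 to 2.97. HDG4 itself was called absent on all 19 arrays, and KAN1 was called present on 2 of the 3 KAN1 arrays and 2 of the 3 S17 arrays. The part of these markers in the results below was not tested. In sorted populations, fewer cells of a type and less RNA per cell cannot be told apart.

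Signals are linear MAS5 intensities, and differences are given in log2(signal + 1) with the standard error of the limma fit. Calls required a 2-fold difference or more and a p below 0.05 after Benjamini-Hochberg adjustment over the 15161 probe sets tested. A gene without detection on any array of its dimmer group has only a lower bound, written as at least a number of folds. The bound sets the brighter mean against the dim signal, or against the faintest signal called present on that array if this is higher. A probe set's signal is compared between populations and never with that of another probe set.

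All 36 genes differed among the 7 reporters in limma's F test, where 75.2% of all probe sets tested also did. By mean log2 signal, 19 genes were highest in S17, 15 in KAN1 and 2 in AtML1. HDG4 was lowest for 29 genes, HMG for 3, LAS for 3 and AtHB8 for 1. The median gene lay 0.90 above the equal-weight mean of the reporters in KAN1 (range of the 3 arrays 0.80 to 0.98), 0.85 above in S17 (0.75 to 1.01), 0.29 above in AtHB8 (0.19 to 0.47) and 0.13 above in AtML1 (-0.07 to 0.32). It lay at -0.46 in LAS (-0.62 to -0.31), at -0.58 in HMG (-0.91 to -0.37) and at -1.0 in HDG4 (-1.53 to -0.30), while the median of all probe sets tested stayed between -0.09 and 0.08. KAN1 and S17 arrays lay above all others, and the HDG4 arrays spread most.

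**Figure D1:**
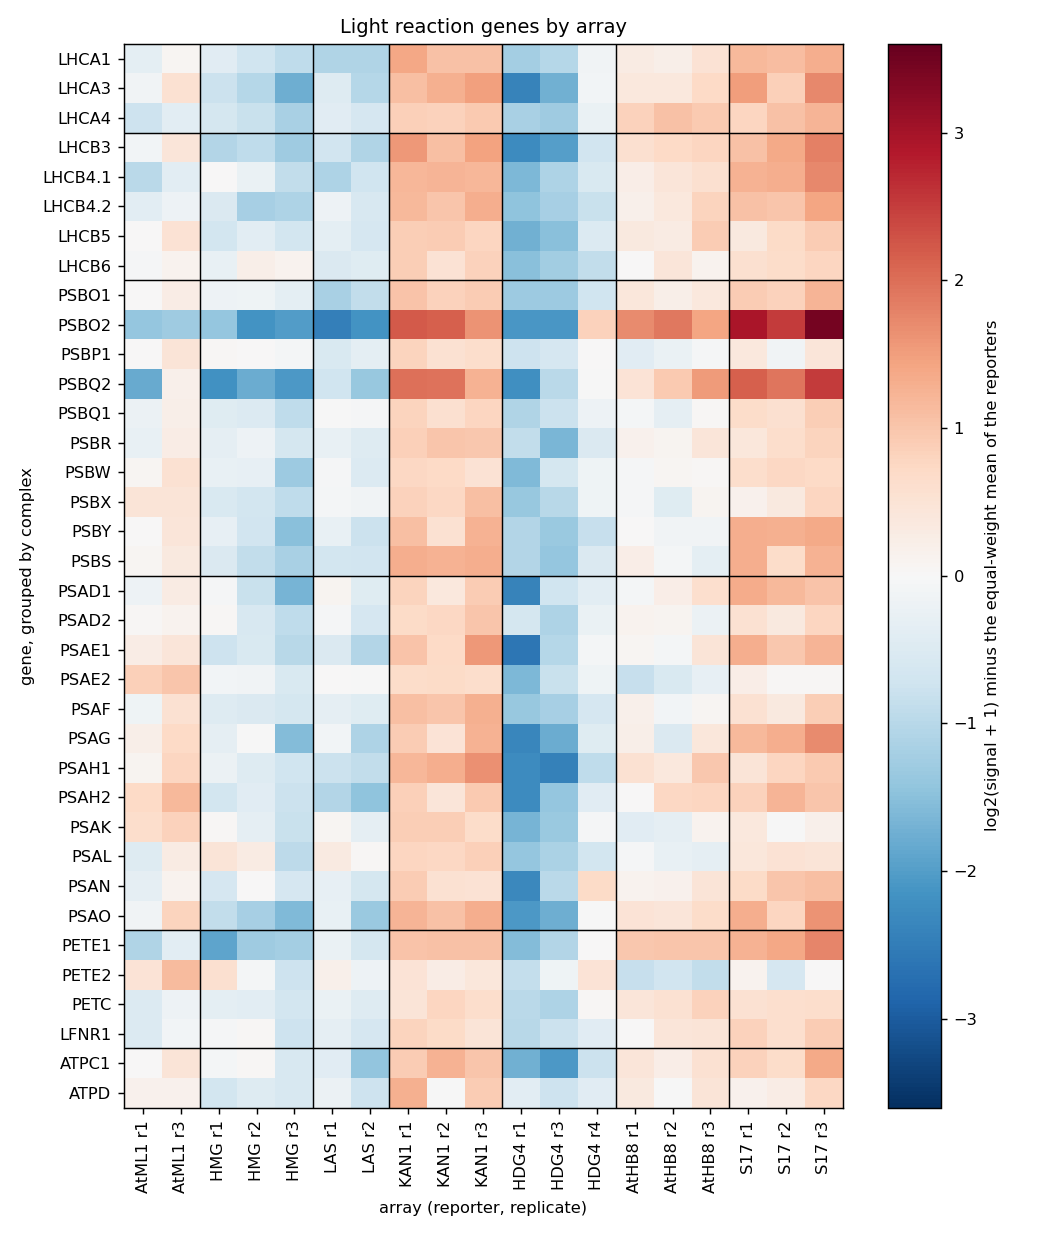
Deviation of each of the 36 genes (rows, grouped by complex) on each of the 19 arrays (columns, grouped by reporter) from the equal-weight mean of the reporters, in log2(signal + 1). Nearly all rows are red in KAN1 and S17 and blue in HDG4 replicates 1 and 3, and PETE2 is blue in AtHB8.

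Some arrays stood apart from others of their group. HDG4 replicate 4 was the highest of its 3 arrays for 35 of the 36 genes, against 36.7% of all probe sets tested, with a median 1.01 above the mean of the other 2 on the log2 scale. HMG replicate 3 was the lowest of its group for 29 genes, against 36.9% of all probe sets tested. S17 replicate 3 was the highest for 27, against 34%, and AtHB8 replicate 3 the highest for 25, against 35.2%. AtML1 replicate 3 was above replicate 1 for 34 genes, against 50.1% of all tested, and LAS replicate 2 below replicate 1 for 30, against 52.4%. Comparisons of the 36 genes with HDG4 are therefore also given with 1 HDG4 array left out.

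KAN1 cells had more transcript of nearly every complex than HDG4 cells. In this comparison of organ circumference with subepidermal cells, 35 of the 36 genes were called higher and none lower, where 9.79% of all probe sets tested were called higher and 4.95% lower. One of the 35, PSBO2 (AT3G50820), was called absent on all arrays of both reporters, which leaves 34. The median difference was 1.96, against -0.02 over all probe sets tested. For 34 genes, here with PSBO2 among them, the KAN1 arrays lay above all HDG4 arrays, as for 21.6% of all tested. Without HDG4 replicate 4 the median was 2.3. Without HDG4 replicate 1 it was 1.72, and PSAN and PSBP1 were no longer called, which left 33 of the 35. Meristem markers also differed in this comparison: STM and CLV3 were called lower in KAN1, KNAT1 was called higher and WUS was not called, and their part in the result was not tested.

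Among the antenna genes of photosystem I, LHCA3 (AT1G61520) had signals of 3802, 4334 and 4940.3 in KAN1 and 334, 539 and 1670.3 in HDG4. The KAN1 arrays were all higher, with 1 HDG4 array well above its group, and the difference was 2.69 ± 0.45 (SE, adjusted p = 0.000517). LHCA1 (AT3G54890) and LHCA4 (AT3G47470), which are also antenna proteins of photosystem I, differed by 1.96 and 1.77. Among antenna genes of photosystem II, LHCB3 (AT5G54270), a protein of the main trimeric antenna, had signals of 4189, 2995 and 3865 in KAN1 and 293, 363 and 880.4 in HDG4, a difference of 3.0 ± 0.32 (SE, adjusted p = 1.29e-05). The groups did not overlap. The minor antenna genes that link the trimers to the core followed, with LHCB4.1 (AT5G01530) at 2.3 ± 0.27 (SE, adjusted p = 3.42e-05), LHCB4.2 (AT3G08940) at 2.31 ± 0.23 (SE, adjusted p = 5.21e-06), LHCB5 (AT4G10340) at 2.1 and LHCB6 (AT1G15820) at 1.95.

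In photosystem II, PSBO1 (AT5G66570) encodes the protein that holds the manganese cluster of water oxidation in place. Its signals were 2319, 2014 and 2139 in KAN1 and 460.0, 465 and 690.3 in HDG4, a difference of 2.02 ± 0.18 (SE, adjusted p = 1.81e-06), with no overlap. PSBQ1 (AT4G21280) and PSBQ2 (AT4G05180) encode another extrinsic protein of the same side and differed by 1.4 ± 0.21 (SE, adjusted p = 0.000242) and 2.80 ± 0.51 (SE, adjusted p = 0.00104). PSBP1 (AT1G06680), the third extrinsic protein, had the smallest difference of the group, 1.11 ± 0.21 (SE, adjusted p = 0.00118). PSBS (AT1G44575), which is needed for the quenching of excess light energy, had signals of 4517, 4344 and 4491 in KAN1 and 862, 691 and 1252 in HDG4 and differed by 2.29 ± 0.24 (SE, adjusted p = 1e-05). The small subunits PSBR (AT1G79040), PSBW (AT2G30570), PSBX (AT2G06520) and PSBY (AT1G67740) differed by 1.96, 1.46, 1.71 and 2.04, and all were called.

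In photosystem I all 12 genes were called. PSAH1 (AT3G16140), a subunit on the side where the photosystem II antenna can dock, had the largest difference of the 36 genes. Its signals were 2709.6, 2914 and 3671 in KAN1 and 244, 217 and 633 in HDG4, a difference of 3.25 ± 0.33 (SE, adjusted p = 7.03e-06). The KAN1 arrays lay far above all 3 HDG4 arrays. Its copy PSAH2 (AT1G52230) differed by 2.11 ± 0.35 (SE, adjusted p = 0.000524). The copies for the ferredoxin docking side also rose, PSAD1 (AT4G02770) by 1.86 ± 0.45 (SE, adjusted p = 0.00655) and PSAD2 (AT1G03130) by 1.47 ± 0.25 (SE, adjusted p = 0.000624), PSAE1 (AT4G28750) by 2.33 ± 0.44 (SE, adjusted p = 0.00123) and PSAE2 (AT2G20260) by 1.51 ± 0.27 (SE, adjusted p = 0.000744). For PSAN (AT5G64040), a lumenal subunit, HDG4 replicate 4 had a signal of 1065, within the KAN1 range of 939 to 1241, and the difference was 1.52 ± 0.49 (SE, adjusted p = 0.0304).

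Plastocyanin is the copper protein that brings electrons to photosystem I. PETE1 (AT1G76100) had signals of 363, 374 and 371 in KAN1 and 59.7, 85.1 and 181 in HDG4, a difference of 1.91 ± 0.32 (SE, adjusted p = 0.000507). PETE2 (AT1G20340) had signals of 2471, 2098 and 2312 in KAN1 and 957, 1553 and 2459 in HDG4. These overlapped, and PETE2 was the 1 gene not called, at 0.57 ± 0.34 (SE, adjusted p = 0.226). PETC (AT4G03280), the Rieske iron-sulphur protein, and LFNR1 (AT5G66190), a ferredoxin-NADP reductase, differed by 1.3 and 1.38. ATPC1 (AT4G04640), the gamma subunit of the ATP synthase, differed by 2.58 ± 0.32 (SE, adjusted p = 4.64e-05), and ATPD (AT4G09650), the delta subunit, by 1.24 ± 0.28 (SE, adjusted p = 0.00364).

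**Figure D2:**
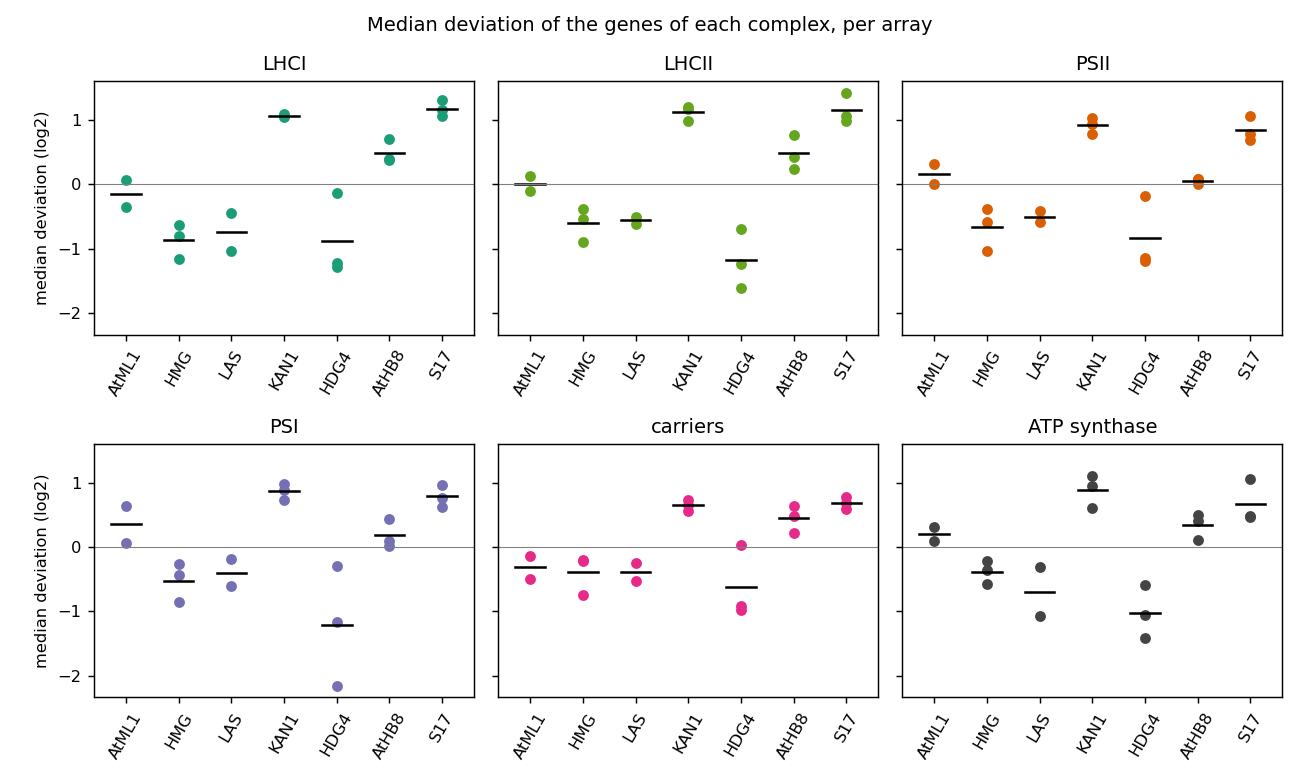
Median deviation of the genes of each complex on each array (points) in log2(signal + 1) from the equal-weight mean of the reporters, with the mean per reporter as a bar. In each of the 6 panels the KAN1 and S17 means are the 2 highest, and HDG4 is the lowest, with the photosystem I median of its arrays between -2.16 and -0.30.

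S17 cells, labelled phloem, also exceeded HDG4 in most of these genes. Of the 36 genes, 32 were called higher and none lower, where 17.4% of all probe sets tested were called higher and 17.8% lower. The 32 include PSBO2, called absent on all HDG4 arrays. It passed the filter on low signals through 3 reporters alone, so its call adds no support. The median difference was 1.95 against -0.14 over all probe sets tested, and 2.29 without HDG4 replicate 4. For 34 genes, PSBO2 among them, the S17 arrays lay above all HDG4 arrays, as for 26.3% of all tested. Without HDG4 replicate 4, PSAE2 was also called higher, which made 33 called genes. Without HDG4 replicate 1 the median was 1.73, and PSAK and PSBX were no longer called, which left 30. Of the meristem markers, CLV3 and WUS were called lower in S17 than in HDG4, KNAT1 was called higher and STM was not called, and their part was not tested. This comparison and the last share the 3 HDG4 arrays.

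PSBO2 had the largest difference from HDG4. Its signals were 569, 429.6 and 808 in S17 and 16.6, 16.5 and 132 in HDG4, and it was called absent on all arrays of the other 6 reporters. In S17 it was called present on 1 of the 3 arrays and marginal on 1. It was called higher in S17 (adjusted p = 2.02e-05), with mean signals of 602 and 55.1, and no fold is given for it because most arrays did not detect it. PSBQ2 had signals of 1828, 1566 and 2348 in S17 and 88.9, 209 and 407 in HDG4, a difference of 3.26 ± 0.51 (SE, adjusted p = 7.83e-05). LHCB3 was next, at 3.06 ± 0.32 (SE, adjusted p = 1.66e-06). The 4 genes not called were PETE2 at 0.02 ± 0.34 (SE, adjusted p = 0.97), PSBP1 at 0.68 ± 0.21 (SE, adjusted p = 0.0114), ATPD at 0.90 ± 0.28 (SE, adjusted p = 0.0113) and PSAE2 at 0.95 ± 0.27 (SE, adjusted p = 0.00644). The last 3 passed the adjusted p and missed the 2-fold minimum.

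KAN1 and S17 were then compared directly, a comparison added after the levels had been seen. None of the 36 genes was called in either direction, where 12.9% of all probe sets were called higher and 12.9% lower. Of the 36 differences, 17 were positive and 19 negative, with a median of -0.02 (-0.06 to 0.11 leaving out 1 array) against 0.13 over all probe sets tested. The highest was 0.65 for PSAH1. The lowest was that of PSBO2, which was called absent on all KAN1 arrays, so its size is not given. In limma's test 1 gene had an unadjusted p under 0.05, higher in KAN1, and a missing call does not show that the levels were alike. PSAF (AT1G31330) was at 0.53 ± 0.22 (SE, adjusted p = 0.0594). The markers set the same 2 populations apart: the 4 epidermal markers were all higher in KAN1 and the 4 phloem markers all higher in S17.

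The epidermal populations held fewer called genes. Against HDG4, the mean of AtML1 and HMG had 10 of the 36 called higher and none lower, where 5.69% of all probe sets tested were called higher and 3.94% lower, and the median difference was 0.74 against -0.07 over all, or 0.44 without HDG4 replicate 1. This count was 4, 5 and 18 without HDG4 replicate 1, 3 and 4. The largest differences were in PSAH1 at 1.85 ± 0.30 (SE, adjusted p = 0.000431), ATPC1 at 1.55 ± 0.29 (SE, adjusted p = 0.00148) and PSAH2 at 1.53 ± 0.32 (SE, adjusted p = 0.00322). The lowest were PSBO2, PSBQ2 and PETE1, at -0.48 ± 0.50 (SE, adjusted p = 0.547), -0.36 ± 0.46 (SE, adjusted p = 0.635) and -0.23 ± 0.29 (SE, adjusted p = 0.627), none of them called and PSBO2 absent by call in all 3 reporters. By complex, 5 of 12 photosystem I genes, 3 of 5 photosystem II antenna genes, 1 of 10 photosystem II genes, 1 of 2 ATP synthase genes and none of the 3 photosystem I antenna genes or 4 carriers were called.

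The 2 epidermal reporters differed from each other. AtML1 had 6 genes higher than HMG and none lower, where 2.69% of all probe sets tested were called higher and 2.32% lower: PSAH2 at 1.56 ± 0.39 (SE, adjusted p = 0.0229), LHCB3 at 1.25 ± 0.36 (SE, adjusted p = 0.0404), PSAE2 at 1.19 ± 0.30 (SE, adjusted p = 0.0218), PSBX at 1.17 ± 0.28 (SE, adjusted p = 0.0194), PSBS at 1.06 ± 0.27 (SE, adjusted p = 0.0234) and PSBY at 1.05 ± 0.30 (SE, adjusted p = 0.0398). PSAO (AT1G08380) had the largest difference, 1.57 ± 0.49 (SE, adjusted p = 0.0544), and LHCA3 was at 1.41 ± 0.50 (SE, adjusted p = 0.0831), neither called. The lowest were LHCB4.1 at -0.30 ± 0.31 (SE, adjusted p = 0.56), LFNR1 at -0.05 and PSAL (AT4G12800) at -0.03. The count of 6 fell to 0 without AtML1 replicate 1, without AtML1 replicate 3 or without HMG replicate 3, was 3 without HMG replicate 2 and was 10 without HDG4 replicate 1, which enters through the shared estimate of the spread. HMG alone against HDG4, also added after the levels had been seen, had 4 genes called higher (LHCB6, PSAH1, PSAL and ATPC1), where 4.94% of all probe sets tested were called higher and 3.48% lower. That count was 1 without HDG4 replicate 3, 2 without HMG replicate 2 and 11 without HDG4 replicate 4. Without HDG4 replicate 1 it was 3 higher and 1 lower.

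KAN1 exceeded the epidermal mean as well. The 4 epidermal markers were all lower in KAN1, by up to -0.96, and none was called. Of the 4 phloem markers 3 were called higher in KAN1. Of the 4 meristem markers 1 was called higher and 2 lower. The part of these markers was not tested. Of the 36 genes, 21 were called higher and none lower, 20 of them without PSBO2, where 6.28% of all probe sets tested were called higher and 2.6% lower. The median difference was 1.03 against 0.02. Apart from PSBO2, PSBQ2 had the largest difference, 3.16 ± 0.46 (SE, adjusted p = 0.000257), from signals of 1638, 1606 and 983 in KAN1, 115 and 464 in AtML1 and 90.1, 119 and 96.6 in HMG. PETE1 followed at 2.14 ± 0.29 (SE, adjusted p = 0.000117) and LHCB3 at 1.81 ± 0.29 (SE, adjusted p = 0.000519). The lowest were PETE2 at 0.02 ± 0.31 (SE, adjusted p = 0.971), PSAE2 at 0.33 ± 0.24 (SE, adjusted p = 0.363) and PSBP1 at 0.55 ± 0.19 (SE, adjusted p = 0.0534). All 3 photosystem I antenna genes and 4 of 5 photosystem II antenna genes were called, against 5 of 12 photosystem I genes.

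LAS cells, labelled adaxial, had 1 gene called higher than HDG4 and none lower, where 2.46% of all probe sets tested were called higher and 2.29% lower. That gene was PSAL, which sits at the docking side of photosystem I, with signals of 1287 and 1068 in LAS and 396, 466 and 658 in HDG4 and a difference of 1.24 ± 0.34 (SE, adjusted p = 0.0435). PSAH1 and PSAD1 followed, at 1.04 ± 0.37 (SE, adjusted p = 0.128) and 0.99 ± 0.51 (SE, adjusted p = 0.335). The lowest were PSBO2, called absent in both, LHCA1 at -0.29 ± 0.27 (SE, adjusted p = 0.662) and PSBP1 at -0.01 ± 0.23 (SE, adjusted p = 0.992). The count was 7 without HDG4 replicate 4 and 0 without HDG4 replicate 1 or 3, either LAS array or any 1 array of AtHB8, KAN1 or S17. The median of 0.50 stood against 0.01 over all probe sets tested, and was 0.26 without HDG4 replicate 1, 0.89 without HDG4 replicate 4 and 0.30 without LAS replicate 1.

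Within the vascular populations, S17 had 3 genes called higher than AtHB8 and none lower, where 4.35% of all probe sets tested were called higher and 4.2% lower. They were PSBY at 1.4 ± 0.27 (SE, adjusted p = 0.00262), PSBS at 1.13 ± 0.24 (SE, adjusted p = 0.00518) and LHCB4.1 at 1.01 ± 0.27 (SE, adjusted p = 0.0207). PSBY had signals of 2012, 1939.6 and 2072 in S17 and 809, 734 and 736 in AtHB8, with no overlap. PSAG (AT1G55670) was at 1.37 ± 0.48 (SE, adjusted p = 0.0644), not called. LHCA4, PSAH1 and PETC had the smallest differences, 0.08, 0.08 and -0.00, and the median was 0.66 against -0.04 over all. Without HDG4 replicate 1 or without HDG4 replicate 4 the count was 5.

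The mean of AtHB8 and S17 was compared with the mean of the other 5 reporters. Of the 36 genes, 12 were called higher and none lower, where 15.5% of all probe sets tested were called higher and 13.2% lower, and the median difference was 0.85 against -0.13. With S17 alone as vascular the count was 19, and with AtHB8 alone it was 5. For no gene did all vascular arrays lie above all others, as they did for 10.2% of all probe sets tested. The 12 include PSBO2, absent by call on all AtHB8 arrays and on those of the 5 other reporters. It was called higher (adjusted p = 6.36e-07). It passed the filter on low signals through 3 reporters alone, so its call adds no support, and it is given no fold. PSBQ2 differed by 2.23 ± 0.31 (SE, adjusted p = 1.36e-05) and PETE1 by 1.72 ± 0.19 (SE, adjusted p = 1.34e-06). At the other end were PETE2 at -0.67 ± 0.21 (SE, adjusted p = 0.0103), PSAE2 at -0.32 ± 0.16 (SE, adjusted p = 0.0879) and PSAK (AT1G30380) at -0.01 ± 0.20 (SE, adjusted p = 0.963). PETE2 thus passed the adjusted p in the opposite direction without reaching 2-fold.

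**Figure D3:**
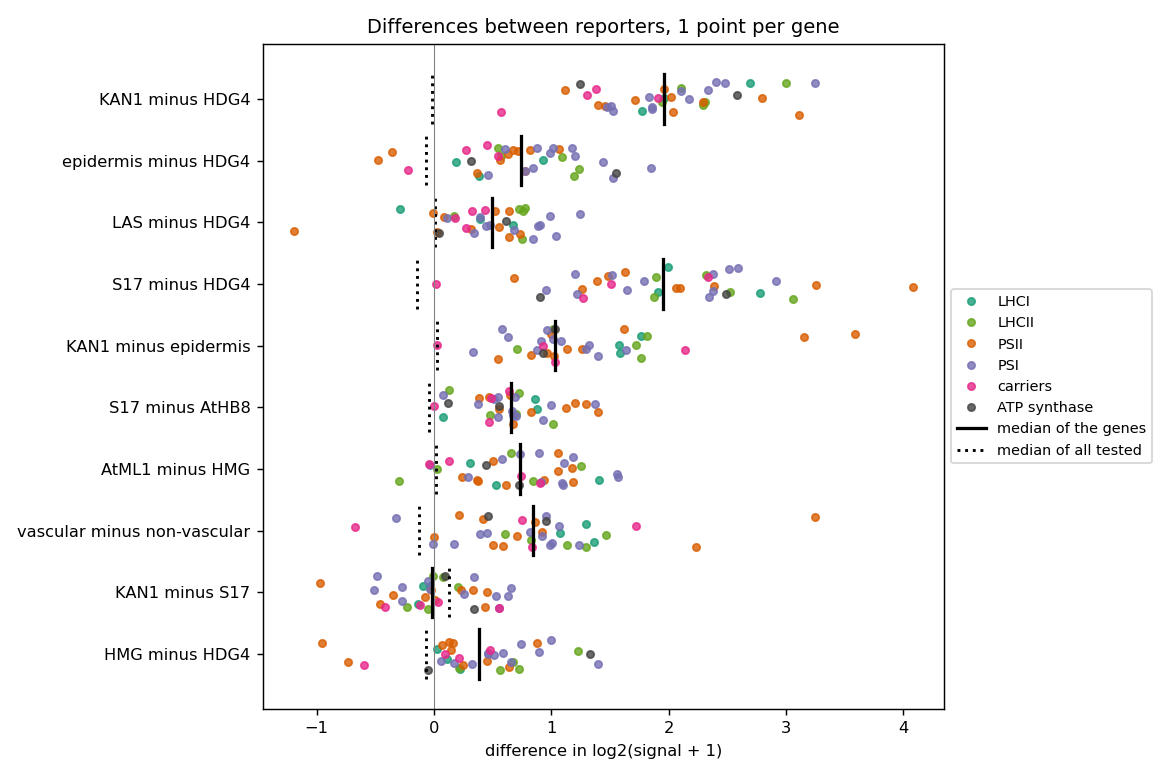
Difference in log2(signal + 1) for each of the 36 genes (points, coloured by complex) in 10 comparisons (rows), with the median of the genes as a solid bar and that of all probe sets tested as a dotted bar. The median of the genes is near 2 for KAN1 and S17 against HDG4 and near 0 for KAN1 against S17.

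Several subunits are encoded by a pair of nuclear genes, and the copies of 7 pairs were compared through the log2 ratio of their signals on the same array. The level of such a ratio depends on the probes, so only its change between reporters is read. The ratio differed among the 7 reporters in the F test for 6 pairs, PSAD1/PSAD2 being the exception (adjusted p = 0.214). Since 75.2% of all probe sets tested also passed this test, the count by itself says little about the copies.

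For PETE1/PETE2 the log2 ratio was -1.47, -1.60 and -1.4 in AtHB8 and -2.16, -1.28 and -1.52 in S17, -2.76, -2.49 and -2.64 in KAN1, -3.98, -4.17 and -3.76 in HDG4, -3.73 and -3.71 in LAS, -4.86 and -4.79 in AtML1 and -5.74, -4.49 and -3.76 in HMG. All vascular arrays lay above all others, KAN1 came next, and the vascular minus non-vascular change was 2.39 ± 0.21 (SE, adjusted p = 1.18e-07). PETE2 itself had signals of 984, 1079 and 951 in AtHB8 and 2475 and 3839.7 in AtML1, while PETE1 had 354, 356 and 359 and 84 and 138. PETE2 was lower and PETE1 higher on every AtHB8 array than on both AtML1 arrays.

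PSAE1/PSAE2 had log2 ratios of 1.91, 1.5 and 1.79 in AtHB8, 2.09, 1.92 and 2.19 in S17 and 1.38, 1.04 and 1.96 in KAN1, against 0.42 and 0.45 in AtML1, 0.35, 0.60 and 0.58 in HMG, 0.49 and -0.01 in LAS and 0.02, 0.78 and 1.11 in HDG4. The vascular arrays overlapped those of KAN1 alone. The vascular minus non-vascular change was 1.24 ± 0.16 (SE, adjusted p = 5.66e-06) and the KAN1 minus HDG4 change 0.82 ± 0.26 (SE, adjusted p = 0.0288).

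PSBQ1/PSBQ2 went the other way. Its log2 ratio was 0.75, 0.02 and -0.19 in AtHB8, -0.20, -0.04 and -0.32 in S17 and 0.12, -0.08 and 0.81 in KAN1, and 1.12 or more on every other array. The vascular minus non-vascular change was -1.81 ± 0.25 (SE, adjusted p = 9.85e-06) and the KAN1 minus HDG4 change -1.4 ± 0.41 (SE, adjusted p = 0.0176). PSBO1/PSBO2 changed by -2.32 ± 0.28 (SE, adjusted p = 2.81e-06) between vascular and non-vascular populations, but PSBO2 was called absent on all arrays of every reporter but S17, so the size of this change is not well measured. PSAH1/PSAH2 differed between KAN1 and HDG4 by 1.14 ± 0.27 (SE, adjusted p = 0.00541) and between vascular and non-vascular by -0.11 ± 0.16 (SE, adjusted p = 0.554). LHCB4.1/LHCB4.2 changed by -0.96 ± 0.24 (SE, adjusted p = 0.024) between AtML1 and HMG and by -0.01 ± 0.22 (SE, adjusted p = 0.972) between KAN1 and HDG4. PSAD1/PSAD2 changed by 0.61 ± 0.25 (SE, adjusted p = 0.041) between vascular and non-vascular.

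**Figure D4:**
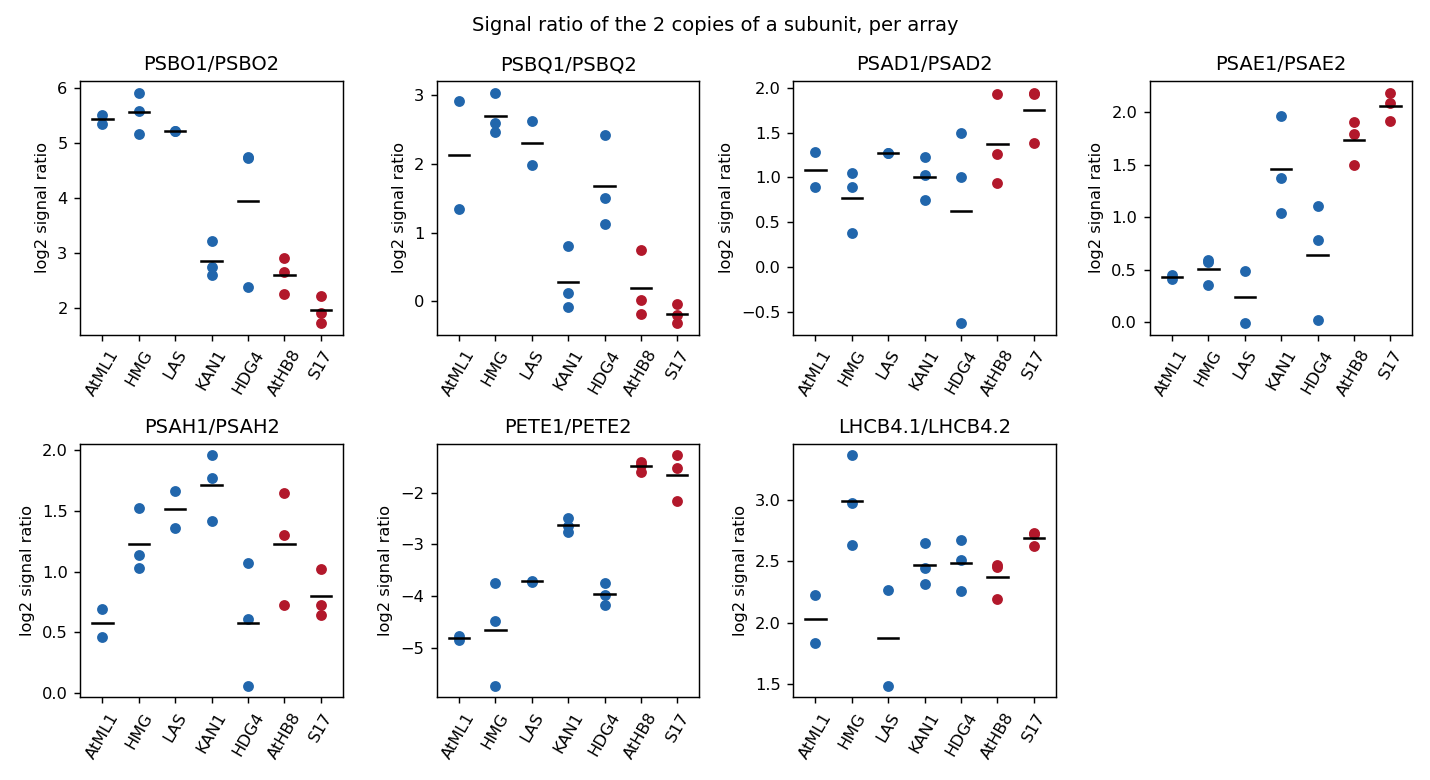
Log2 ratio of the signals of the 2 copies of a subunit on each array (points; red for AtHB8 and S17, blue for the others), with the mean per reporter as a bar. The vascular arrays are highest for PETE1/PETE2, and those of S17 are lowest for PSBO1/PSBO2.

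Over the 7 reporter means, Pearson's r of a gene with the median profile of the other members was 0.15 for PETE2, 0.60 for PSAE2 and 0.78 to 0.99 for the other 34, given as a description without a test, since all genes share the arrays. Among 9294 other loci, the 10 with the profile most like that of the members by the same measure had r of 0.959 to 0.987. They included MSRB3, a methionine sulphoxide reductase, APRR2, a pseudo-response regulator, PHT2;1, a phosphate transporter of the chloroplast, GBSS1, the starch synthase of amylose, and AOC4, an allene oxide cyclase of jasmonate synthesis. The others were AT2G32520, AT4G39970, AT5G19240, AT2G31790 and AT3G60080.

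Other genes of the pathway were counted from lists chosen by function. Of the 24 plastid-encoded light reaction genes, 21 passed the filter. The counts of these lists are to be read against the 9.79% of all probe sets tested that were called higher and 4.95% lower in KAN1 against HDG4, and the 17.4% higher and 17.8% lower in S17 against HDG4. In S17 against HDG4, 12 were called higher and none lower, with a median of 1.27. In KAN1 against HDG4, 2 of the 21 were called higher and 1 lower, shares near those of all probe sets, with a median of -0.22, where the nuclear genes had a median of 1.96. In KAN1 against S17, 13 were called lower and none higher, where 12.9% of all probe sets tested were called lower and 12.9% higher. The median was -1.25, against 0.13 over all probe sets tested. psbB, a core antenna protein of photosystem II, differed by 3.02 ± 0.43 (SE, adjusted p = 2.86e-05) in S17 minus HDG4 and -2.34 ± 0.43 (SE, adjusted p = 0.000404) in KAN1 minus S17. psbZ, a small photosystem II subunit, differed by -2.37 ± 0.48 (SE, adjusted p = 0.00201) in KAN1 minus HDG4. S17 had the highest mean for 20 of the 24 plastid genes.

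The Calvin cycle list of 9 measured genes had 8 called higher in KAN1 than in HDG4, 4 called higher in S17 than in HDG4 and none lower in either. GAPB, a glyceraldehyde-3-phosphate dehydrogenase subunit, differed by 2.52 ± 0.25 (SE, adjusted p = 5.63e-06) and 2.46 ± 0.25 (SE, adjusted p = 1.05e-06). CA1, a carbonic anhydrase of the chloroplast grouped here, was higher in KAN1 than in S17 by at least 21.1-fold (adjusted p = 8.94e-05). In chlorophyll synthesis, 5 of 18 genes were called higher in KAN1 than in HDG4 and 4 in S17 than in HDG4, with none lower, and the share in S17 was near that of all probe sets. GUN4, which stimulates magnesium chelatase, was at least 9.07-fold higher in KAN1 and at least 9.14-fold higher in S17 than in HDG4, where it was called absent on all arrays. CRD1, a cyclase subunit of the pathway, differed by 2.23 ± 0.25 (SE, adjusted p = 1.73e-05) and 1.90 ± 0.25 (SE, adjusted p = 1.26e-05). Of 19 assembly and thylakoid import genes, 2 were called higher in KAN1 and 1 in S17 than in HDG4, a share near that of all probe sets in KAN1 and below it in S17.

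Of 10 tested genes of photoprotection and cyclic electron flow, 3 were called higher in KAN1 and 1 in S17 than in HDG4, the last a smaller share than among all probe sets. Of 12 further light reaction genes measured, 4 were called higher than HDG4 in KAN1 and 4 in S17. LFNR2, the second ferredoxin-NADP reductase of leaves, differed by 2.81 ± 0.40 (SE, adjusted p = 0.000135) in KAN1 and 2.48 ± 0.40 (SE, adjusted p = 8.47e-05) in S17. LHCB4.3, another copy of the minor antenna gene, differed by 1.75 ± 0.38 (SE, adjusted p = 0.00313) and 3.23 ± 0.38 (SE, adjusted p = 4.53e-06), and was lower in KAN1 than in S17 by -1.48 ± 0.38 (SE, adjusted p = 0.00495). The 3 ferredoxin and reductase genes of non-photosynthetic tissue had none called in either comparison with HDG4. Among 11 regulators tested, PIF1, a phytochrome-interacting factor, differed by 2.2 ± 0.40 (SE, adjusted p = 0.000897) in KAN1 minus HDG4 and was at least 11-fold higher in KAN1 than in S17. GLK2, an activator of light reaction genes, differed by 1.31 ± 0.26 (SE, adjusted p = 0.00156), and GLK1 was called absent on all arrays.

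**Figure D5:**
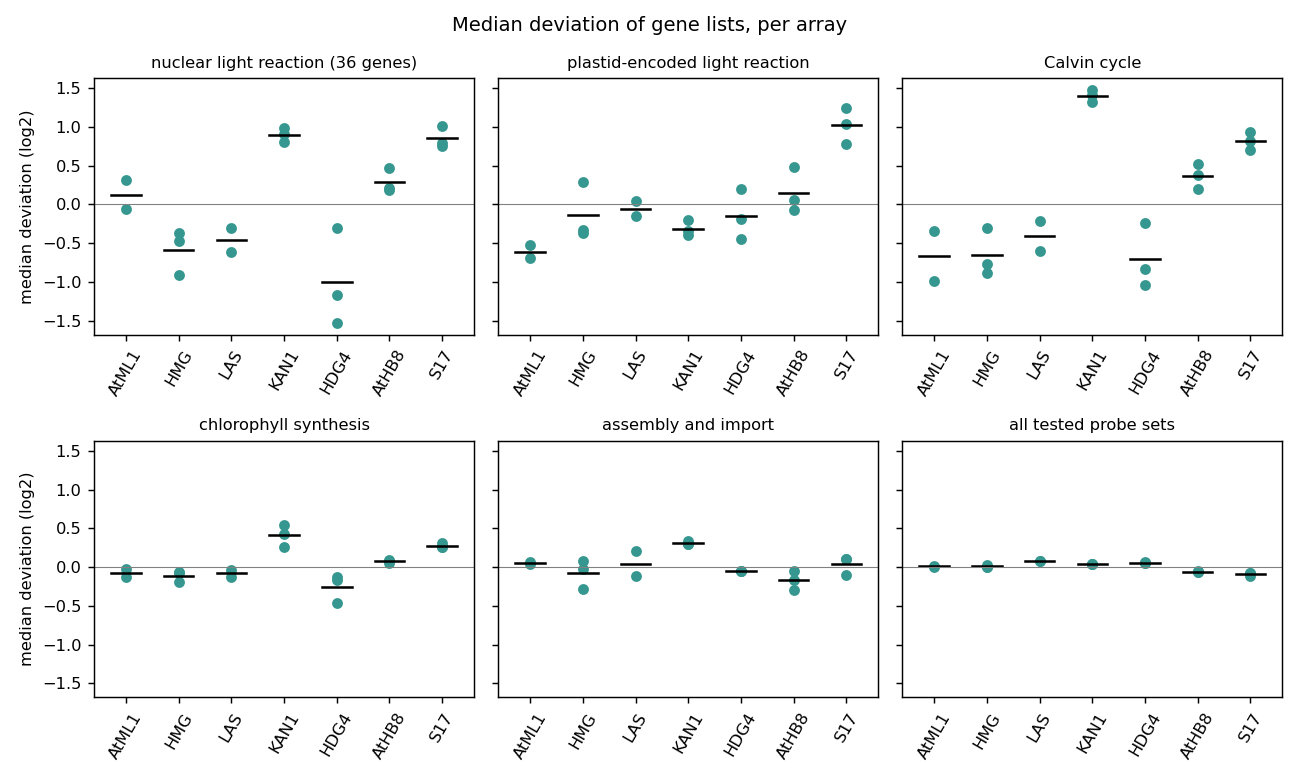
Median deviation of gene lists on each array (points) in log2(signal + 1) from the equal-weight mean of the reporters, with the mean per reporter as a bar. The nuclear light reaction and Calvin cycle genes are high in KAN1 and S17, and the plastid-encoded genes are high in S17 alone.

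Signs of RNA quality and handling moved with some populations. The array carries 2 pairs of actin probe sets from which a 3' to 5' signal ratio can be formed, and the result depended on the pair. With the pair computed first, the ratio was 110.9 ± 8.52 (SD, n = 3) in KAN1 and 116.4 ± 28.7 (SD, n = 16) elsewhere (two-sided exact permutation test, p = 0.743). Its 5' probe set was dim, between 70.7 and 145.1 on all arrays. With the second pair, tried after the first result had been seen, the ratio was 5.50 ± 0.92 (SD, n = 3) in KAN1 and 11.8 ± 3.58 (SD, n = 16) elsewhere (exact permutation test, p = 0.0114). The means of the other reporters ran from 11.1 ± 1.08 (SD, n = 3) in S17 to 12.6 ± 7.17 (SD, n = 2) in LAS. The GAPDH ratios were 7.26 and 12.8 with 1 pair (exact permutation test, n = 3 and 16, p = 0.0764) and 1.83 and 2.27 with the other (exact permutation test, p = 0.0609). After Benjamini-Hochberg adjustment over these 4 ratios the values were 0.743 and 0.0456 for actin and 0.102 for both GAPDH pairs (n = 3 and 16, exact permutation tests). By mean, KAN1, AtHB8 and S17 had the lowest GAPDH ratios of the 7 reporters with both pairs. With the first pair, AtHB8 had a mean of 7.95, and S17 arrays ran from 6.07 to 12.3. The means elsewhere ran from 12.6 in HMG to 17.96 in AtML1. With the second pair the means were 2.05 in AtHB8 and in S17, and 2.26 in HMG to 2.50 in AtML1. Single arrays overlapped, with HMG replicate 2 at 8.95 by the first pair and AtHB8 replicate 3 at 2.87 by the second. Genes induced by protoplasting, heat, touch or wounding had a median deviation of 0.74 in AtHB8 and 0.34 in S17, against -0.14 in KAN1 and -0.46 in HDG4. The part of these genes and of the 3' to 5' ratios in the levels of the light reaction genes was not tested.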

How the data were processed

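RNA of sorted cells was hybridised to Affymetrix ATH1 arrays, 19 in all. The deposited intensity values were linear MAS5 signals per probe set, named so in the submitters' processing notes; the version is not given in the sources used here. On every array the mean after trimming 2% at each end was 500, a value all arrays share; the scaling step is not given in the sources used here. The authors' averaged table gave the locus and detection calls of 21021 probe sets and the mean intensity per reporter, within 0.005 of the means computed here. Precision is limited by the number of arrays. The files name no genome build, so no coordinates are given.

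Of 22810 probe sets, 64 controls were left out. The test covered 15161 of the other 22746, those that reached the 40th percentile of each array of some reporter. limma 3.58.1 in R 4.3.3 was fitted on log2(signal + 1) with 1 mean per reporter over all 19 arrays (12 residual and 3.06 prior degrees of freedom, two-sided). The added 1 understates the change of dim genes. Adjusted p-values are Benjamini-Hochberg over all probe sets tested. On simulated data for KAN1 minus HDG4 (15161 probe sets), 89% of 200 changed by 2 on the log2 scale were called. Copy pairs were fitted as log2 ratios. Alternatives were another pseudocount, other filters, quantile normalisation, array weights, a block on replicate number, no fold minimum and leaving out arrays.

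The genes, lists, comparisons and tests were chosen with earlier results of these data known. By the naming rule any of the 39 genes could be named. Full statistics were given for the 3 highest and 3 lowest genes of a comparison and for both copies of a pair, up to 4 called genes were named from other lists, and the 10 other loci were named by likeness of profile. The comparisons of KAN1 with S17 and of HMG with HDG4 and the second actin probe set pair were added after values had been seen. The design named no actin probe sets. The first pair computed (p = 0.743 for KAN1, exact permutation test) is kept as the main result, with the second (p = 0.0114) beside it.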

Additional observations from a re-analysis of the deposited data

Results flagged for a closer look

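In KAN1 against HDG4 and in vascular against non-vascular populations, the ratio of the copies of a subunit changed by at least 2-fold at an adjusted p under 0.05 for 5 of the 7 pairs, by limma's test of the ratio itself. Other comparisons and smaller changes are not counted here. Between vascular and non-vascular populations the log2 ratio changed by -2.32 for PSBO1/PSBO2, -1.81 for PSBQ1/PSBQ2, 1.24 for PSAE1/PSAE2 and 2.39 for PETE1/PETE2. Between KAN1 and HDG4 it changed by -1.40 for PSBQ1/PSBQ2, 1.14 for PSAH1/PSAH2 and 1.34 for PETE1/PETE2. PSBO2 was called absent on all arrays of 6 reporters, so the first of these values is not well measured. Whether the probe sets of near-identical copies share signal was not tested.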

How the results depend on the processing

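With the 2-fold minimum kept, 1 gene was called lower in 1 case, HMG against HDG4 without HDG4 replicate 1 (3 higher, 1 lower). The counts for KAN1 and S17 against HDG4, KAN1 against the epidermal mean and KAN1 against S17, the genes passing the F test and the copy pairs passing it stayed within 1.5 times the main value under every alternative run. The other counts moved, and the cause was not tested. Replicate number 4 occurs in HDG4 alone, so the replicate block in effect leaves that array out. The arrays of highest ratio by the second actin pair also include it. In epidermis minus HDG4 the same 8 genes were gained in both cases and without HDG4 replicate 4, so these alternatives are not independent. For the epidermal mean against HDG4 (10) the count was 18 with the replicate block, 18 without the 3 arrays of highest ratio by the second actin pair, 17 with no fold minimum and 4 to 18 leaving out 1 array. For LAS against HDG4 (1) it was 0 with no filter, 8 with the block, 2 with array weights, 0 and 2 without the 3 arrays of highest ratio by the first and second actin pair and 0 to 7 leaving out 1 array. For S17 against AtHB8 (3) it was 5 with a pseudocount of 16, 6 with the block, 5 with array weights, 5 by the second actin pair, 7 with no fold minimum and 2 to 5 leaving out 1 array. For AtML1 against HMG (6) it was 2 with no filter, 0 and 12 by the first and second actin pair and 0 to 10 leaving out 1 array. For the vascular comparison (12) it was 31 with no fold minimum, 30 higher and 1 lower, 19 with S17 alone, 5 with AtHB8 alone and 10 to 16 leaving out 1 array. For HMG against HDG4 (4) it was 9 with the block, 8 by the second actin pair and 1 to 11 leaving out 1 array. Over 46 same-numbered pairs of arrays the correlation of deviations ran from -0.23 to 0.21, and was over 0.1 in 3. Over 108 pairs of different number it ran from -0.21 to 0.17, and was over 0.1 in 13. With so few arrays in a group, these values cannot show whether arrays of the same number shared a batch. The KAN1 minus other difference of the actin ratio was -5.52 with the first pair (-10.4 to -1.51 leaving out 1 array), not past the threshold, and -6.30 with the second, past it; the arrays of highest ratio are AtHB8 replicate 3, AtML1 replicate 1 and S17 replicate 2 by the first pair and HMG replicate 1, LAS replicate 1 and HDG4 replicate 4 by the second. Leaving out an array of AtML1 or LAS leaves 1 in that group, which is then assumed to vary like the others. Small differences, none of them called, changed sign. With the replicate block they were 0.23 for PETE1 in epidermis minus HDG4; 0.18 for PSBQ2 in epidermis minus HDG4; 0.50 for PSBO2 in epidermis minus HDG4; 0.32 for PSBP1 in LAS minus HDG4; 0.11 for LHCA1 in LAS minus HDG4; 0.10 for PSAK in vascular minus non-vascular. With array weights they were 0.060 for PSBP1 in LAS minus HDG4; -0.060 for PETE2 in S17 minus HDG4; 0.031 for PETC in S17 minus AtHB8. With quantile normalisation they were 0.016 for PETC in S17 minus AtHB8; 0.040 for PSAL in AtML1 minus HMG; 0.0022 for LFNR1 in AtML1 minus HMG; 0.16 for LHCB4.1/LHCB4.2 in KAN1 minus HDG4. With a pseudocount of 16 they were 0.088 for LHCB4.1/LHCB4.2 in KAN1 minus HDG4. Without the 3 arrays of highest ratio by the first actin pair they were 0.14 for PSBQ2 in epidermis minus HDG4; -0.14 for PETE2 in KAN1 minus epidermis; 0.11 for PETC in S17 minus AtHB8; 0.35 for PSAL in AtML1 minus HMG; 0.15 for LFNR1 in AtML1 minus HMG. Without the 3 of highest ratio by the second pair they were 0.32 for PETE1 in epidermis minus HDG4; 0.21 for PSBQ2 in epidermis minus HDG4; 0.38 for PSBO2 in epidermis minus HDG4; 0.32 for PSBP1 in LAS minus HDG4; 0.047 for LHCA1 in LAS minus HDG4; 0.23 for PSAL in AtML1 minus HMG; 0.054 for LFNR1 in AtML1 minus HMG; 0.17 for PSAK in vascular minus non-vascular; 0.084 for LHCB4.1/LHCB4.2 in KAN1 minus HDG4. Leaving out 1 array the ranges were -0.57 to 0.22 for PETE1 in epidermis minus HDG4, -0.93 to 0.16 for PSBQ2 in epidermis minus HDG4, -0.97 to 0.50 for PSBO2 in epidermis minus HDG4, -0.16 to 0.22 for PSBP1 in LAS minus HDG4, -0.50 to 0.045 for LHCA1 in LAS minus HDG4, -0.33 to 0.35 for PETE2 in S17 minus HDG4, -0.14 to 0.19 for PETE2 in KAN1 minus epidermis, -0.045 to 0.25 for PSAH1 in S17 minus AtHB8, -0.021 to 0.20 for LHCA4 in S17 minus AtHB8, -0.085 to 0.11 for PETC in S17 minus AtHB8, -0.47 to 0.35 for PSAL in AtML1 minus HMG, -0.29 to 0.15 for LFNR1 in AtML1 minus HMG, -0.093 to 0.087 for PSAK in vascular minus non-vascular, -0.24 to 0.82 for PSAD1/PSAD2 in KAN1 minus HDG4, -0.22 to 0.012 for PSAH1/PSAH2 in vascular minus non-vascular, -0.12 to 0.084 for LHCB4.1/LHCB4.2 in KAN1 minus HDG4.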
